A study of Arabidopsis thaliana with 9 samples.

Results

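The 10 genes described here take sulfate up, activate it and reduce it in Arabidopsis thaliana, or respond to its shortage, and they include the best known targets of the microRNA miR395. They were chosen by name and locus from the 37869 loci counted in each library. They are the ATP sulfurylase genes APS1 (AT3G22890), APS3 (AT4G14680) and APS4 (AT5G43780), the sulfate transporter genes SULTR2;1 (AT5G10180), SULTR1;1 (AT4G08620) and SULTR1;2 (AT1G78000), the adenylyl sulfate reductase genes APR1 (AT4G04610), APR2 (AT1G62180) and APR3 (AT4G21990), and SDI1 (AT5G48850), which is named for its induction by sulfur deficiency. Polyadenylated RNA was sequenced from whole 12-day-old seedlings of 2 mutant alleles, pp4r3a-1 and pp4r3a-2, and of the wild type Col-0, all in the Col-0 background, with 3 biological replicates each. The seedlings grew on plates of reduced-strength Murashige and Skoog medium with 16 hours of light and 8 hours of dark, and no treatment was given. PP4R3A encodes a regulatory subunit of protein phosphatase 4, and the title of the series places this complex in the making of primary microRNAs. The labels name each allele without describing its lesion.

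Plants import sulfate through SULTR transporters at the root surface and move it to the shoot through others. ATP sulfurylase then activates it to adenylyl sulfate, which adenylyl sulfate reductase turns into sulfite on the way to sulfide and cysteine, or which a kinase phosphorylates for the sulfation of glucosinolates and other compounds. Sulfate-starved Arabidopsis accumulates miR395, which pairs with the mRNAs of APS1, APS3, APS4 and SULTR2;1 and directs their cleavage, while the reductases, the uptake transporters and SDI1 are induced by starvation without being its targets.

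The mature miR395 sequences are shown because their pairing with the mRNAs sorts the 10 genes into targets and others. They are given 5′ to 3′ from RefSeq (TAIR10.1, chromosome 1), with the seed, bases 2 to 8, in capitals. The first is shared by miR395a, miR395d and miR395e, and the second by miR395b, miR395c and miR395f, so both groups have the same seed.
miR395a: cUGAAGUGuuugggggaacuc
miR395b: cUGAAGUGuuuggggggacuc
The levels of the microRNA and of its primary transcripts were not analysed here.

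The best matching sites in the 4 target mRNAs are shown next, read from the TAIR10.1 genome in the direction of the mRNA, with the bases opposite the seed in capitals. The APS1 site lies at chr3:8113164-8113184 on the plus strand, the APS3 site at chr4:8414958-8414978 on the minus strand, the APS4 site at chr5:17591121-17591141 on the minus strand and the SULTR2;1 site at chr5:3193268-3193288 on the plus strand. Each is in coding sequence within exon 1, of 5 exons in the ATP sulfurylase genes and of 10 in SULTR2;1.
APS1: gaguuccuccaaaCUCUUCAu
APS3: gaguuccuccaaaCUCUUCAu
APS4: gaguuccuccaaaCACUUCAu
SULTR2;1: aaguucucccaaaCACUUCAa
The sites of APS1 and APS3 are identical, each with 1 seed base left without a Watson-Crick partner, whereas the seed pairs fully in APS4 and SULTR2;1. With 1 point per mismatch and 0.5 per G:U pair, APS4 scored 1.5 and the other three scored 2.5. The other 6 genes scored between 6 and 8. Of 31460 loci with an annotated mRNA, 9 scored 2.5 or less.

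Libraries held between 20733294 and 27022497 exon counts, so that 3 counts stood for 0.111 to 0.145 CPM, the count per 1e+06 exon counts of the library. PP4R3A itself was at 62.7 CPM in pp4r3a-1, 18.04 CPM in pp4r3a-2 and 81.6 CPM in Col-0 on average, lower in both alleles (log2 change −0.37 in pp4r3a-1 and −2.13 in pp4r3a-2). Replicate 3 of pp4r3a-2 stood apart: its chi-square per degree of freedom against the other 2 replicates was 8.31 and 12.1, against 1.62 to 3.99 for the 7 other replicate pairs, and 0.962% of its exon counts came from the chloroplast genome, the highest share of the 9 libraries. Leaving it out ended none of the calls on exon counts of the 10 genes given below. Shoot markers (3 genes) summed to 22210 to 23487 CPM in pp4r3a-1, 24052 to 25207 CPM in pp4r3a-2 and 26110 to 27232 CPM in Col-0, a sum made up almost wholly of RBCS1A and LHCB1.3. Of these 3 genes 1 was higher and 2 were lower in pp4r3a-1 (36.3% and 36.1% of all genes tested). In pp4r3a-2, 1 was higher and 1 lower (35.6% and 35.8%), and RBCS1A was not called. GLK2 was the higher one, at 133 CPM in pp4r3a-1, 85.9 CPM in pp4r3a-2 and 31.5 CPM in Col-0 (log2 changes 2.09 and 1.496). The 3 floral markers summed to at most 1.13 CPM in any library. The clock genes CCA1 and TOC1 differed between the genotypes as well: CCA1 averaged 28.7 CPM in pp4r3a-1, 25.7 CPM in pp4r3a-2 and 0.686 CPM in Col-0, and TOC1 averaged 101 CPM, 82.9 CPM and 166 CPM in the same order. The hour of harvest is not given, and the part of these differences in the values below was not tested.

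All 10 genes passed the filter on low counts, and all 10 differed between each allele and Col-0 in edgeR's quasi-likelihood test at an adjusted p under 0.05. In each allele 7 were higher (APS1, APS3, SULTR1;2, APR1, APR2, APR3 and SDI1) and 3 were lower (APS4, SULTR2;1 and SULTR1;1). Among all 22631 genes tested, 72.4% were called in pp4r3a-1 (36.3% higher and 36.1% lower) and 71.4% in pp4r3a-2 (35.6% higher and 35.8% lower), so a call alone says little about a gene here. Their sizes were less common: 6 of the 10 genes in pp4r3a-1 and 7 in pp4r3a-2 were called at least 2-fold higher, against 9.19% and 8.45% of all genes tested. At least 2-fold lower were 0 of them in pp4r3a-1 (6.85% of all genes) and 1, SULTR1;1, in pp4r3a-2 (6.24%). The 10 genes were chosen with earlier results of these data known, so these counts are descriptions and not tests. In CPM the 3 mutant libraries lay above the 3 Col-0 libraries for 7 genes and below them for 3 in each allele, against 36.2% above and 37.3% below over all genes in pp4r3a-1, and 33.3% above and 40.4% below in pp4r3a-2. The median log2 change of the 10 genes was 1.35 in pp4r3a-1 seedlings and 1.39 in pp4r3a-2 seedlings, while that of all genes tested lay within 0.003 of 0. Both alleles were compared with the same 3 Col-0 libraries, so their changes are not independent of each other.

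**Figure D1:**
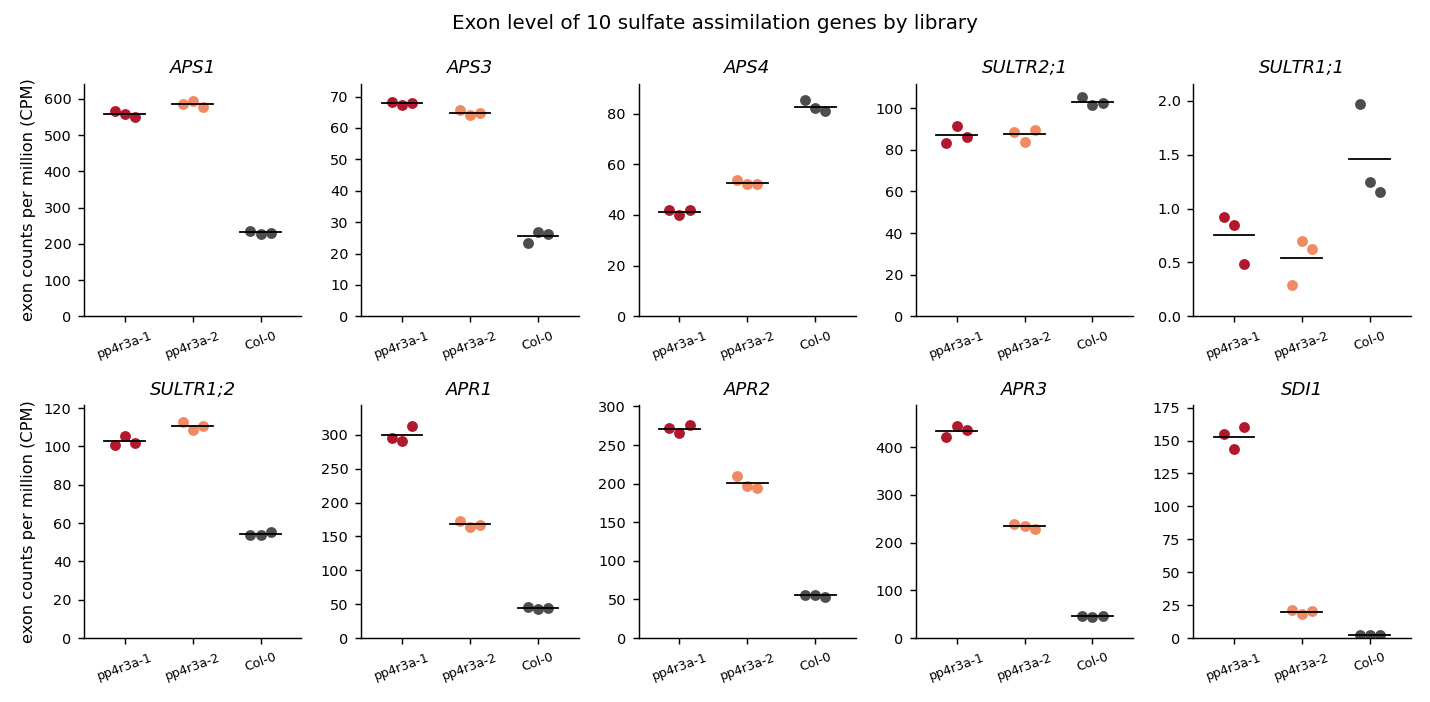
Exon level in CPM (vertical axes, from 0, a separate scale for each gene) in every library of pp4r3a-1, pp4r3a-2 and Col-0; points are libraries and bars are means of 3. The 3 APR genes and SDI1 stepped down in the order pp4r3a-1, pp4r3a-2, Col-0, whereas APS4, SULTR2;1 and SULTR1;1 were highest in Col-0.

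The ATP sulfurylase genes, which activate sulfate, moved in opposite directions. APS1, the most abundant of them, had 567, 559 and 550 CPM in pp4r3a-1 seedlings, 585, 593 and 578 CPM in pp4r3a-2, and 236, 227 and 231 CPM in Col-0. Its level was 2.43-fold higher in pp4r3a-1 (log2 change 1.28 ± 0.036, SE, edgeR adjusted p = 1.18e-27) and 2.61-fold higher in pp4r3a-2 (1.39 ± 0.036, edgeR adjusted p = 1.71e-28). Every mutant library lay above every Col-0 library. APS3, its closest paralog here, with 82.0% identical coding bases, had 68.4, 67.4 and 67.9 CPM in pp4r3a-1 seedlings, 65.9, 64.1 and 64.6 CPM in pp4r3a-2, and 23.3, 26.9 and 26.3 CPM in Col-0. The rise of APS3 was like that of APS1 in size, with log2 changes of 1.42 ± 0.048 in pp4r3a-1 and 1.39 ± 0.049 in pp4r3a-2 (SE, edgeR adjusted p = 4.29e-25 and 1.51e-24).

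APS4, the third of these genes with a miR395 site, was lower in both alleles. It had 42.0, 39.8 and 41.7 CPM in pp4r3a-1 seedlings, 53.6, 52.1 and 52.3 CPM in pp4r3a-2, and 85.2, 82.0 and 80.9 CPM in Col-0. All libraries of the 3 genotypes were separate, with pp4r3a-1 lowest and Col-0 highest. The log2 change was −0.997 ± 0.043 in pp4r3a-1 (SE, edgeR adjusted p = 9.03e-22) and −0.60 ± 0.042 in pp4r3a-2 (SE, edgeR adjusted p = 2.36e-15).

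Per kilobase of annotated exon, joined over all transcripts of a gene, the 4 ATP sulfurylase genes, APS2 included, summed to 393 CPM/kb in pp4r3a-1, 420 CPM/kb in pp4r3a-2 and 220 CPM/kb in Col-0. APS1 made up 74.6% of this sum in pp4r3a-1, 73.2% in pp4r3a-2 and 55.1% in Col-0. The share of APS4 was 5.502% in pp4r3a-1, 6.59% in pp4r3a-2 and 19.7% in Col-0. In Col-0, APS4 (43.4 CPM/kb, libraries from 42.5 to 44.7) and APS2 (42.7 CPM/kb, libraries from 40.5 to 44.6) did not differ beyond their spread, and APS3 was the lowest at 12.7 CPM/kb. In both alleles APS3 stood above APS4. APS2, whose best site scored 6.5, was not called in pp4r3a-1 (log2 change 0.07, edgeR adjusted p = 0.113) and was higher in pp4r3a-2 (0.35, edgeR adjusted p = 2.16e-09).

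SULTR2;1, a low-affinity transporter of the vasculature that serves the movement of sulfate from root to shoot, is the fourth gene with a site. It had 83.4, 91.5 and 85.9 CPM in pp4r3a-1 seedlings, 88.7, 83.9 and 89.5 CPM in pp4r3a-2, and 105, 101 and 103 CPM in Col-0. All mutant libraries lay below all Col-0 libraries, by a small margin next to the other genes. The log2 change was −0.24 ± 0.040 in pp4r3a-1 (SE, edgeR adjusted p = 2.03e-06) and −0.19 ± 0.040 in pp4r3a-2 (SE, edgeR adjusted p = 6.12e-05).

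The 4 targets did not move as one group. The pair with a fully paired seed, APS4 and SULTR2;1, was lower in both alleles, and the pair with 1 unpaired seed base, APS1 and APS3, was higher in both. With 4 genes this is a description of these sites and not a test. The 5 other loci scoring 2.5 or less were mixed. AT2G28780, whose seed pairs fully, was higher (log2 change 0.31 in pp4r3a-1 and 0.21 in pp4r3a-2), AT5G13630, with 1 seed base in a G:U pair, was higher (1.51 and 1.89), and AT3G09220, with 2 seed bases not in Watson-Crick pairs, was lower (−0.41 and −0.53). AT1G50930, also with a fully paired seed, was not called in either allele (−0.25 ± 0.43 and −0.44 ± 0.45, SE). At 0.427 CPM in pp4r3a-1, 0.368 CPM in pp4r3a-2 and 0.494 CPM in Col-0 it was too low for this to show no change. AT4G23840, with 1 seed mismatch, was called higher in pp4r3a-1 (0.26) and not in pp4r3a-2 (0.07).

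**Figure D2:**
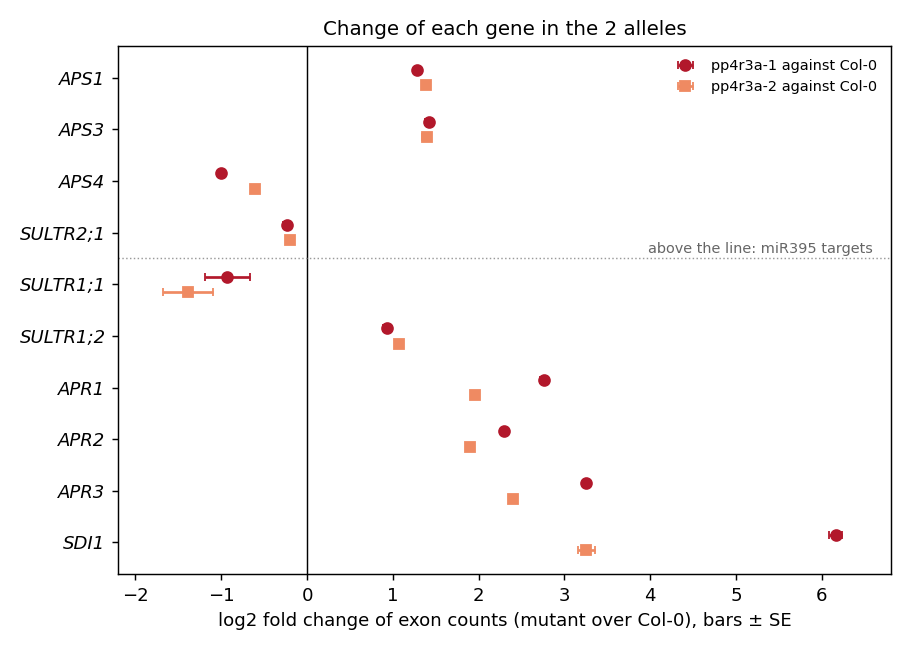
Log2 fold change of exon counts (horizontal axis, mutant over Col-0, bars ± SE) of the 10 genes (vertical axis) in pp4r3a-1 (circles) and pp4r3a-2 (squares); the 4 miR395 targets are above the dotted line. APS1 and APS3 lie near 1.4, APS4 and SULTR2;1 lie below 0, and SDI1 is farthest to the right at 6.16 in pp4r3a-1 and 3.26 in pp4r3a-2.

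The high-affinity transporters of the root surface, which are not miR395 targets, went opposite ways. SULTR1;2, the main uptake transporter, had 101, 106 and 102 CPM in pp4r3a-1 seedlings, 113, 109 and 111 CPM in pp4r3a-2, and 53.7, 53.5 and 55.5 CPM in Col-0. This was 1.90-fold higher in pp4r3a-1 (log2 change 0.93 ± 0.039, SE, edgeR adjusted p = 4e-22) and 2.11-fold higher in pp4r3a-2 (1.08 ± 0.039, edgeR adjusted p = 5.43e-24). SULTR1;1, known for its strong induction in sulfate-starved roots, was barely detected, with 25, 21 and 11 exon counts in pp4r3a-1 seedlings, 7, 18 and 13 counts in pp4r3a-2, and 50, 32 and 27 counts in Col-0. Its log2 change was −0.93 ± 0.26 in pp4r3a-1 (SE, edgeR adjusted p = 0.00219) and −1.39 ± 0.29 in pp4r3a-2 (SE, edgeR adjusted p = 7.89e-05). The mutant and Col-0 libraries did not overlap in CPM, but the SEs of SULTR1;1 were the widest of the 10 genes.

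Per kilobase of exon SULTR1;1 reached 0.319 CPM/kb in pp4r3a-1, 0.229 CPM/kb in pp4r3a-2 and 0.619 CPM/kb in Col-0, while SULTR1;2 reached 24.5, 26.4 and 12.9 CPM/kb in the same order. By this measure SULTR2;1 was above SULTR1;2 in all 3 genotypes, at 34.0, 34.1 and 40.3 CPM/kb. The joined exon length is 4193 bases over 7 transcripts for SULTR1;2, against 2560 bases over 1 transcript for SULTR2;1. Before division by length, SULTR1;2 averaged 102.6, 110.7 and 54.3 CPM in the same order, and SULTR2;1 averaged 86.9, 87.4 and 103.1 CPM. The ranking of this pair in both alleles therefore depends on the length used, while in Col-0 both measures placed SULTR2;1 higher. In seedlings sequenced whole, fewer root cells and less RNA per root cell cannot be told apart. The 12 root markers summed to 2104 to 2221 CPM in pp4r3a-1, 1996 to 2038 CPM in pp4r3a-2 and 1835 to 1885 CPM in Col-0, a sum made up mostly of PYK10. Of the 11 that passed the filter on low counts, 7 were higher and 0 lower in pp4r3a-1 (36.3% and 36.1% of all genes tested). In pp4r3a-2, 4 were higher and 5 lower (35.6% and 35.8%). The part of root content in the transporter values was not tested.

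The adenylyl sulfate reductases, which catalyse the step that commits sulfate to reduction, rose together and more in pp4r3a-1. APR1 had 295, 290 and 314 CPM in pp4r3a-1 seedlings, 172, 164 and 167 CPM in pp4r3a-2, and 46.0, 43.0 and 44.5 CPM in Col-0. APR2, the main reductase isoform of Arabidopsis leaves, had 272, 265 and 276 CPM in pp4r3a-1 seedlings, 210, 197 and 195 CPM in pp4r3a-2, and 56.3, 56.2 and 53.5 CPM in Col-0. APR3 had 422, 444 and 436 CPM in pp4r3a-1 seedlings, 239, 235 and 228 CPM in pp4r3a-2, and 45.6, 45.0 and 46.7 CPM in Col-0. For each of the 3 genes the libraries of the 3 genotypes fell into 3 separate ranges.

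The log2 change of APR1 was 2.76 ± 0.042 in pp4r3a-1 seedlings and 1.96 ± 0.042 in pp4r3a-2 (SE, edgeR adjusted p = 5.76e-36 and 4.2e-31). For APR2 it was 2.30 ± 0.041 and 1.90 ± 0.041 (edgeR adjusted p = 4.72e-34 and 3.4e-31). APR3 changed most, by 3.25 ± 0.039 and 2.40 ± 0.039 (edgeR adjusted p = 2.63e-39 and 4.61e-35), or 9.54-fold in pp4r3a-1 and 5.29-fold in pp4r3a-2. Per kilobase the 3 genes summed to 525 CPM/kb in pp4r3a-1, 313 CPM/kb in pp4r3a-2 and 75.0 CPM/kb in Col-0. APR3 supplied 45.3% of that sum in pp4r3a-1, 41.0% in pp4r3a-2 and 33.4% in Col-0, where APR2 was the largest at 36.0%.

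SDI1, a repressor of glucosinolate synthesis under sulfur deficiency, showed the widest change of the 10. It had 155, 143 and 160 CPM in pp4r3a-1 seedlings, 21.0, 18.2 and 20.5 CPM in pp4r3a-2, and 1.93, 2.22 and 2.27 CPM in Col-0. The 3 genotypes were again separate. Its level was 71.6-fold higher in pp4r3a-1 (log2 change 6.16 ± 0.076, SE, edgeR adjusted p = 9.86e-38), which ranked 15 of 22631 genes by absolute log2 change, and 9.55-fold higher in pp4r3a-2 (3.26 ± 0.10, SE, edgeR adjusted p = 1.35e-25). Per kilobase SDI1 was at 126 CPM/kb in pp4r3a-1, 16.4 CPM/kb in pp4r3a-2 and 1.77 CPM/kb in Col-0. By Euclidean distance between log2 profiles centred on the gene's own mean over the 9 libraries, the nearest of 20579 genes to SDI1 was GGCT2;1 (AT5G26220, distance 0.813), a cytosolic enzyme that breaks down glutathione, followed by GolS3 (AT1G09350, distance 1.02) and NATA1 (AT2G39030, distance 1.11).

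The alleles were also compared directly. Of the 10 genes, 3 were higher and 4 lower in pp4r3a-2 than in pp4r3a-1, against 24.2% and 23.7% of all genes tested (47.9% called in either direction). None was at least 2-fold higher (2.28% of all genes) and 1, SDI1, was at least 2-fold lower (2.71%). The libraries of pp4r3a-2 lay above those of pp4r3a-1 in CPM for 3 genes and below them for 5, APS3 included, against 22.4% and 30.8% of all genes. The lower ones were the 3 reductases and SDI1: the log2 change in pp4r3a-2 against pp4r3a-1 was −0.80 ± 0.038 for APR1, −0.39 ± 0.037 for APR2, −0.85 ± 0.035 for APR3 and −2.91 ± 0.053 for SDI1 (SE, with edgeR adjusted p = 2.85e-11 or smaller). APS4 was higher in pp4r3a-2 (0.39 ± 0.045, edgeR adjusted p = 2.73e-09), as was SULTR1;2 (0.15 ± 0.037, edgeR adjusted p = 0.00114). APS1 was called slightly higher in pp4r3a-2 (0.11 ± 0.035, edgeR adjusted p = 0.0121), but without replicate 2 of pp4r3a-2 this was 0.10 (edgeR adjusted p = 0.0553) and no longer called, and scaling by library size or by upper quartiles ended the call too. No difference was called for APS3 (−0.03 ± 0.043), SULTR2;1 (0.05 ± 0.041) or SULTR1;1 (−0.46 ± 0.34), the last with an SE that leaves a wide range of differences.

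Other genes of sulfur metabolism were taken from 4 lists made by role. The lists were chosen with earlier results of these data known, so their counts are descriptions and not tests. Of 9 further SULTR genes, 6 were higher and 2 lower in pp4r3a-1 (36.3% and 36.1% of all genes tested). In pp4r3a-2, 7 were higher and 2 lower (35.6% and 35.8%). The median log2 changes of the 9 were 1.23 and 0.83. SULTR4;2, which releases sulfate from the vacuole, was at 68.3 CPM in pp4r3a-1, 46.9 CPM in pp4r3a-2 and 10.3 CPM in Col-0, with log2 changes of 2.74 and 2.23. Its paralog SULTR4;1 was higher too (1.23 and 0.81), as were SULTR3;4 (2.19 and 1.23) and SULTR3;1 (1.93 and 1.47), whereas SULTR3;3 was lower (−1.22 and −0.44).

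The next list held 12 genes for ATP sulfurylase 2, sulfite reductase, cysteine and glutathione synthesis. In pp4r3a-1, 5 of the 12 genes were higher and 5 lower (36.3% and 36.1% of all genes tested). In pp4r3a-2, 7 of the 12 genes were higher and 4 lower (35.6% and 35.8%). Their median log2 changes, 0.011 and 0.31, were far below those of the 10 genes. The serine acetyltransferase SERAT3;2 was the exception in size, at 12.4 CPM in pp4r3a-1, 5.17 CPM in pp4r3a-2 and 1.32 CPM in Col-0 (log2 changes 3.24 and 2.02). SERAT2;2 (1.09 and 0.71) and SERAT2;1 (0.52 and 0.56) were also higher, and the plastid cysteine synthase gene OASB was lower (−0.35 and −0.57). The 4 kinases that phosphorylate adenylyl sulfate were all higher in pp4r3a-1 (36.3% of all genes tested). In pp4r3a-2, 3 of them were higher (35.6%), and APK3 was not called (0.08, edgeR adjusted p = 0.485). APK1 changed by 1.37 and 1.19 and APK2 by 1.18 and 1.14.

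Of 9 other genes known to respond to sulfur deficiency, 9 were higher in pp4r3a-1 (36.3% of all genes tested) and 8 in pp4r3a-2 (35.6%). The median log2 changes of the 9 were 3.58 and 2.28. BGLU28, a beta-glucosidase linked to glucosinolate breakdown, was at 73.1 CPM in pp4r3a-1, 18.2 CPM in pp4r3a-2 and 1.11 CPM in Col-0, with log2 changes of 6.03 and 4.06. GGCT2;1 was at 99.8 CPM in pp4r3a-1, 13.8 CPM in pp4r3a-2 and 2.11 CPM in Col-0 (5.58 and 2.76), and SHM7 at 215, 107 and 31.9 CPM in the same order (2.76 and 1.79). All 9 were lower in pp4r3a-2 than in pp4r3a-1, against 23.7% of all genes tested. Their median log2 change was −1.30, in the direction also seen for SDI1 and the reductases. In the list of further SULTR genes, 5 of 9 were lower in pp4r3a-2 than in pp4r3a-1 (23.7% of all genes tested) and 3 were higher (24.2%).

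**Figure D3:**
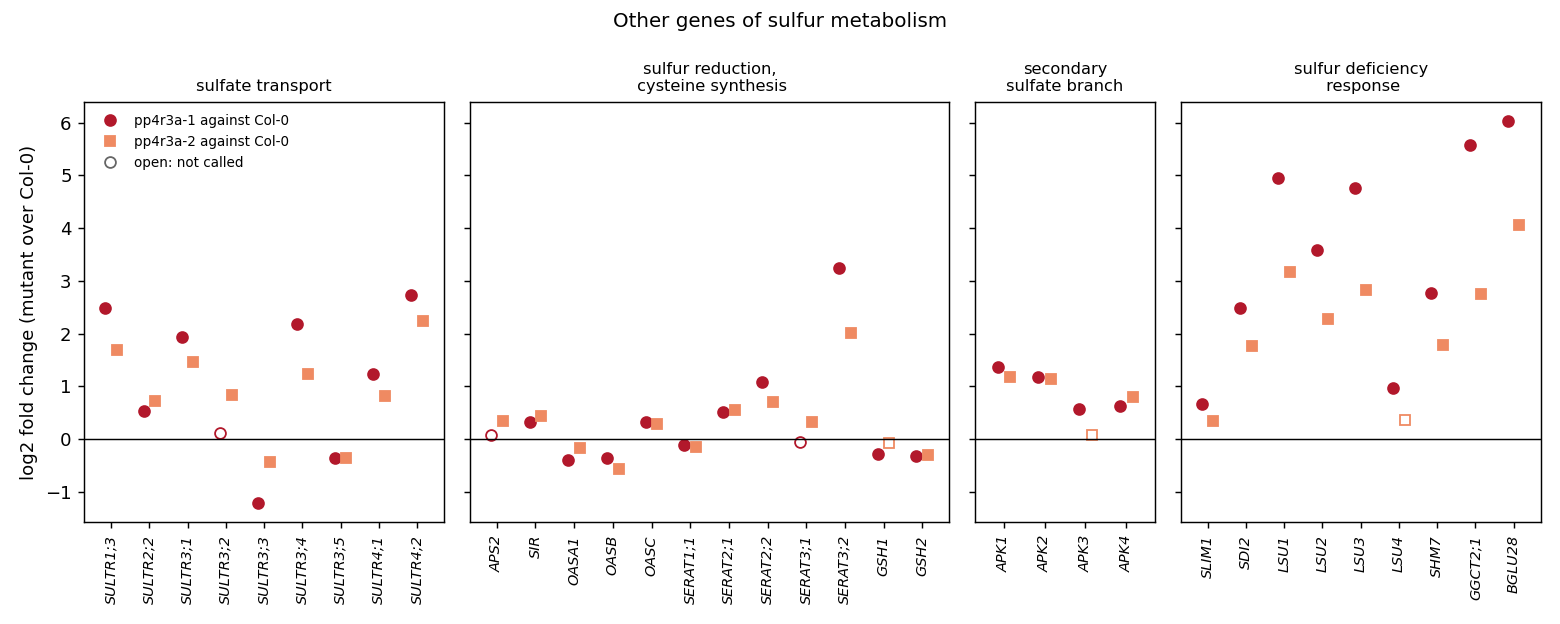
Log2 fold change over Col-0 (vertical axis) of 34 other genes of sulfur metabolism in 4 lists (panels), in pp4r3a-1 (circles) and pp4r3a-2 (squares), with open symbols for genes not called. The sulfur deficiency panel has the highest points, up to 6.03 for BGLU28, and the panel of reduction and cysteine synthesis is centred near 0.

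The 5-letter motif GAGAC, found in sulfur-responsive elements of Arabidopsis promoters, was searched on both strands of the 250 bases before and 50 after each gene start. It occurred in 32.8% of 27561 promoters, and at least 2 times in 7.29%. Among the 10 genes it occurred in this window only in SDI1, 2 times. Sequence farther from the gene start was not searched, so the motif may occur there in the others. Of the 9 sulfur deficiency genes 5 held it, 1 of them 2 times. A match describes these letters in this window and is not a site.

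The tables also hold intron counts, which in polyadenylated RNA can come from unspliced or partly spliced transcripts. Intron counts made up 3.03 to 3.23% of exon and intron counts together in pp4r3a-1, 2.91 to 2.98% in pp4r3a-2 and 2.004 to 2.10% in Col-0. The ratio of intron to exon counts was tested for 8 of the 10 genes. SULTR1;1 and APS4 had fewer than 90 intron counts over the 9 libraries and were not tested. Some genes reached that minimum only through their mutant libraries: at the Col-0 level APS3, APR1, APR2 and SDI1 would not have reached it. Their values in the mutants brought these 4 into the test, so only APS1, SULTR2;1, SULTR1;2 and APR3 are counted below.

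In pp4r3a-1 the ratio was higher in all 4 of these genes, against 77.7% of 11133 genes tested (1.16% lower, 78.8% in either direction), and in pp4r3a-2 in 3 of the 4, all but APR3, against 69.9% (1.22% lower, 71.1% in either direction). With shares that high over all genes, these counts are no result about the 4 genes. The median log2 change of the ratio over all genes tested was 0.99 in pp4r3a-1 seedlings and 0.87 in pp4r3a-2. SULTR2;1 combined a lower exon level with more intron counts: 56, 58 and 42 intron counts in pp4r3a-1 seedlings and 41, 57 and 37 in pp4r3a-2, against 12, 18 and 15 in Col-0. That was 2.41 intron counts per 100 exon counts in pp4r3a-1, 2.20 in pp4r3a-2 and 0.587 in Col-0, a log2 change of the ratio of 2.03 ± 0.23 and 1.90 ± 0.24 (SE, edgeR adjusted p = 1.17e-15 and 3.33e-13). APS1 changed by 1.44 ± 0.18 and 0.73 ± 0.20 (SE, edgeR adjusted p = 2.08e-13 and 0.000495), and SULTR1;2 by 1.05 ± 0.18 and 1.32 ± 0.18 (SE, edgeR adjusted p = 1.04e-07 and 8.97e-12).

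APR1, SDI1 and APR2 reached the minimum only through their mutant libraries, so their calls in this paragraph support nothing about them. Over all genes tested, the ratio was called higher for 77.7% in pp4r3a-1 and 69.9% in pp4r3a-2, with median changes of 0.99 and 0.87. APR1 had 69, 93 and 72 intron counts in pp4r3a-1 seedlings and 26, 23 and 26 in pp4r3a-2, against 1, 1 and 0 in Col-0. SDI1 had 301, 311 and 269 intron counts in pp4r3a-1 seedlings and 31, 39 and 33 in pp4r3a-2, against 3, 2 and 0 in Col-0. The ratio of SDI1 was called in pp4r3a-1 (1.20 ± 0.53, SE, edgeR adjusted p = 0.033) but not in pp4r3a-2 (1.13 ± 0.56, SE, edgeR adjusted p = 0.0588), and the call in pp4r3a-1 was lost without replicate 3 of Col-0 (0.65, edgeR adjusted p = 0.284), without replicate 2 of Col-0 (1.28, edgeR adjusted p = 0.0746) and without replicate 2 of pp4r3a-1 (1.11, edgeR adjusted p = 0.0501), and limma on the log2 ratio did not call it either (1.34, limma adjusted p = 0.0578). Without replicate 1 of Col-0 the change was larger and called (1.92, edgeR adjusted p = 0.0141). In pp4r3a-2 it was called without replicate 1 of Col-0 (1.86, edgeR adjusted p = 0.0246) and without replicate 1 of pp4r3a-2 (1.26, edgeR adjusted p = 0.0422). APR2 and APR3 were called higher in pp4r3a-1 (0.86 ± 0.27 and 1.21 ± 0.25, SE) and not in pp4r3a-2 (0.35 ± 0.29 and 0.52 ± 0.27, SE). Single libraries decided these too: without replicate 2 of Col-0 the call of APR2 in pp4r3a-1 was lost (0.60, edgeR adjusted p = 0.0701), and APR3 was called in pp4r3a-2 without replicate 1 of Col-0 (1.01, edgeR adjusted p = 0.00953) or without replicate 2 of pp4r3a-2 (0.65, edgeR adjusted p = 0.0356).

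Between the alleles the ratio was lower in pp4r3a-2 for 2 of the 4 genes counted, APS1 (−0.71) and APR3 (−0.70), against 6.72% of all genes tested, and none was called higher (1.5%, or 8.22% in either direction). APR1 (−0.72) and APR2 (−0.51) were called lower, but they entered the test only through their mutant libraries. Their calls are not counted and add nothing to those of APS1 and APR3. These calls depended on the method: limma on the log2 ratio called 0 of the 8 genes tested, with 1 at an unadjusted p under 0.05. The calls of APR1 and APR2 were lost without replicate 2 of pp4r3a-2 and without replicate 2 of pp4r3a-1, and APR2 was also lost without replicate 1 of pp4r3a-2 (−0.42, edgeR adjusted p = 0.198) and without replicate 3 of pp4r3a-1 (−0.44, edgeR adjusted p = 0.142).

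**Figure D4:**
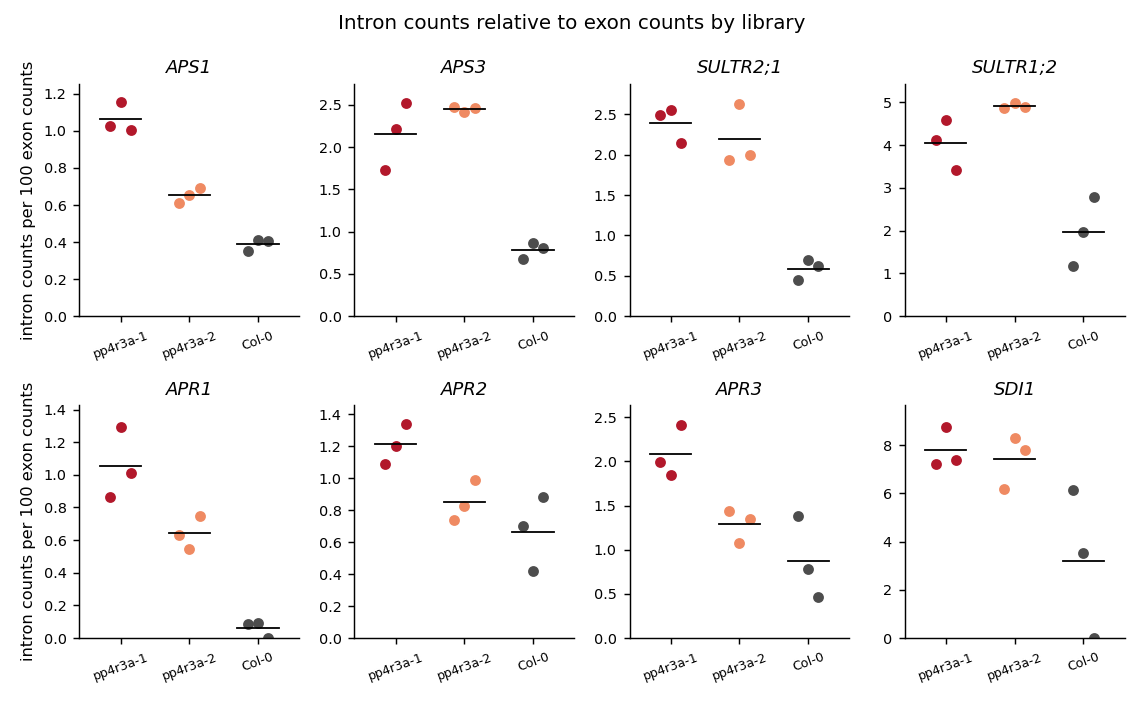
Intron counts per 100 exon counts (vertical axes, from 0, a separate scale for each gene) of the 8 genes tested, in every library of pp4r3a-1, pp4r3a-2 and Col-0; points are libraries and bars are means of 3. SULTR2;1 stood near 2.4 in pp4r3a-1 and 2.2 in pp4r3a-2 against 0.587 in Col-0, and APR1 was near 0 in Col-0.

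How reads were assigned limits some of these values. APS3, APS4, APR1, APR2 and APR3 overlap genes on the opposite strand in the TAIR10.1 annotation, and since the counting is not stated to use strand, reads of the partners cannot be told apart. APR2 shares 8.64% of its 50-base stretches with AT1G62170, one of its overlapping neighbours. APS1, SULTR2;1, SULTR1;1, SULTR1;2 and SDI1 overlap no annotated gene. Paralogs share few long stretches: APS1 and APS3 have 1 such stretch in common, and APR1 and APR3, with 82.4% identical coding bases, share none.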

How the data were processed

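Per the file headers the authors deposited exon and intron counts of 37869 loci, in 1 table for each of the 9 libraries. Reads were aligned with STAR, version not given, per the submitters' processing notes. The genome build, annotation, counting program and strandedness are not given in the sources used here. The 3 replicates of each genotype are biological, per the labels. Members and lists were chosen with earlier results of these data known. The rule for names was all 10 members, and up to 3 genes per list and comparison by smallest p.

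Exon counts were filtered with filterByExpr (22631 genes kept), scaled by TMM (factors 0.972 to 1.02) and tested with the robust quasi-likelihood test of edgeR 4.0.16 in R 4.3.3, with 1 mean per genotype, two-sided and Benjamini-Hochberg adjusted, at 0.05. CPM uses the library total, without TMM. Intron-to-exon ratios were tested as an interaction in edgeR, with library as a block, for 11133 genes with at least 90 intron counts. DESeq2 1.42.0, limma 3.58.1, other scalings and filters, a replicate block and leaving out each library were alternatives. The fits were tested on simulated data. Floors cover counting error only.

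Overlaps, promoters and sites came from the TAIR10.1 annotation, which holds 37573 of the loci and may not be the one counted. Site scores sum 1 per mismatch and 0.5 per G:U pair.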

Additional observations from a re-analysis of the deposited data

How the results depend on the processing

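Against Col-0, 10 of 10 members were called in each allele, with 7 higher and 3 lower, under every alternative run. They included DESeq2, limma voom, other scalings and filters, a threshold of 0.01, fits on the groups compared only and leaving out each library. SULTR1;1 in pp4r3a-1 came near the threshold of 0.05. With 1 library left out its log2 change ranged from −1.115 to −0.642, with an edgeR adjusted p of up to 0.0494. In the main fit 72.4% of all genes tested were called in pp4r3a-1, 71.4% in pp4r3a-2 and 47.9% between the alleles. A stable call therefore says little about a member. Between the alleles 6 or 7 were called, and the varying one was APS1, which was lost at the threshold of 0.01, with library size only (0.07, edgeR adjusted p = 0.102), with upper quartiles (0.08, edgeR adjusted p = 0.0539) and without replicate 2 of pp4r3a-2 (0.10, edgeR adjusted p = 0.0553). Of 600 values of single members 596 kept direction and call, as did 1018 of 1020 of the pathway genes. APS2 in pp4r3a-1 became called without replicate 2 of Col-0 (0.11, edgeR adjusted p = 0.0447), and the uncalled allele difference of SERAT2;1 turned to −0.0017 with library size only.

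The replicate numbers gave no sign of pairing: same-numbered libraries correlated between −0.0413 and 0.0311 in their deviations from the group means. Differently numbered libraries correlated between −0.0751 and 0.0613. With 3 replicates per genotype these correlations cannot exclude a pairing. With the replicate number as a block, 10 members were called on exon counts in each allele and 7 between the alleles. On the intron-to-exon ratio the block gave 8 in pp4r3a-1, 5 in pp4r3a-2 and 4 between the alleles, the same counts as without it. Without the block, 78.8%, 71.1% and 8.22% of all genes tested were called in the same order. The 8 members tested include APS3, APR1, APR2 and SDI1, which reached the minimum only through mutant libraries. These counts therefore support nothing about the members.

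The ratio was less stable, and in the main fit it was called for 78.8% of all genes tested in pp4r3a-1, 71.1% in pp4r3a-2 and 8.22% between the alleles. Of its 8 members tested, 4 (APS3, APR1, APR2 and SDI1) reached the minimum of intron counts only through the mutant libraries, so these counts describe the settings and support nothing about the members. With at least 450 intron counts only 4 members were tested, and 4 were called in pp4r3a-1, 2 in pp4r3a-2 and 2 between the alleles. These were APS1, SULTR1;2, APR3 and SDI1, with 67, 79, 30 and 5 intron counts in Col-0. At the Col-0 level none of them would have reached 450, so these calls support nothing about them either. The share of all genes called at this setting is not given here. Limma on the log2 ratio called 7 in pp4r3a-1 (without SDI1, limma adjusted p = 0.0578), 5 in pp4r3a-2 and, between the alleles, 0 against 4 with edgeR, with 1 at an unadjusted p under 0.05. Leaving out 1 library gave 6 to 8 in pp4r3a-1, 5 to 7 in pp4r3a-2 and 2 to 4 between the alleles. The uncalled allele difference of SDI1 ranged from −0.16 to 0.059 when 1 library was left out. The causes were not tested. Depth limits SULTR1;1 on exon counts, and APR1 and SDI1 on intron counts, where Col-0 had 2 and 5.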
